A study of Mus musculus and Homo sapiens with 20 samples.

Results

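The regions described here are stretches of the human genome that were listed as open chromatin in all 4 HepG2 libraries of one condition and in no library of the other. ATAC-seq, in which the transposase Tn5 cuts and tags accessible DNA, was applied to HepG2, a line derived from a human liver cancer. The libraries titled B2_minus (4 libraries, vitamin B2 deficiency per the treatment label) are set against those titled Cont (4 libraries, control), all labelled day 12. No transgene, knockout or other agent is labelled for either group, and the labels do not say whether the 4 libraries came from separate cultures, so the spread between them may be technical. Another 12 libraries of the study, from mouse hepatocytes, are not analysed here. File names oppose the titles: in 8 of 8 cases the deposited HepG2 file is named for the other condition. Groups follow the titles throughout, and every direction below carries that doubt.

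Peaks on chromosomes 1 to 22 and X were joined into one region wherever they overlapped by at least 1 bp, which gave 500015 regions on hg38. Of these, 1022 had a peak in all 4 B2_minus libraries and in no Cont library, which is 0.204% of all regions. The opposite pattern, all 4 Cont libraries and no B2_minus library, was met by 868 regions, or 0.174%. They are called B2_minus members and Cont members, 1890 in all. Members were selected on their listing in these same libraries, so their counts and tags are a description and carry no test. Leaving out any one library, which makes the rule easier to meet, gave 1583 to 2044 B2_minus members and 1298 to 2151 Cont members.

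Riboflavin, or vitamin B2, is the precursor of the flavin cofactors FMN and FAD, which flavoenzymes of the respiratory chain, fatty acid oxidation and one-carbon metabolism need in liver cells. The study's title places vitamin B2 with AhR, a ligand-activated transcription factor that dimerises with ARNT and opens enhancers of xenobiotic metabolism genes. A gain or loss of accessible chromatin marks places where regulatory proteins bind or leave DNA. A peak list records such a place only above a threshold and at the position given to the peak. A region with no listed peak therefore has an unknown level, and no fold change is given for a member. No human gene annotation or genome sequence was used here, so members are given by coordinates, with no gene, motif or marker.

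List lengths and listed tags overlapped between the groups. The B2_minus lists held 268764 ± 13614 peaks and the Cont lists 274238 ± 14381 (SD, n = 4 each), and the exact two-sided permutation test gave p = 0.629. Their tags summed to 6925707 ± 762203 in B2_minus and 6302391 ± 664096 in Cont, with exact permutation p = 0.229. The smallest p that 4 against 4 allows is 0.0286. The lowest tag count that a list contained was 7, 7, 7 and 8 in B2_minus libraries 1 to 4, and 7, 8, 6 and 7 in Cont libraries 1 to 4. Tags outside listed peaks are not in these sums, so total depth is unknown. Scaled tags, named as such where used, are tags divided by a library factor. That factor ran between 0.947 and 1.1946 in B2_minus and between 0.8495 and 1.0818 in Cont. Other tag counts, including those listed for single sites, are unscaled.

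Exclusive listing was the rarest of the listing patterns. A peak in all 8 libraries was found in 141079 regions, and a peak in a single library in 76096 regions for B2_minus and 90031 for Cont. The mixed pattern of 2 B2_minus and 2 Cont libraries held 12214 regions. Just outside the rule stood 2630 regions with all 4 B2_minus libraries and 1 Cont library, and 3157 with 3 B2_minus libraries and no Cont library. In the first of these sets the single Cont peak had a median of 9 tags and lay at the lowest count of its list in 29.39% of regions. The mirror sets held 2434 regions with all 4 Cont libraries and 1 B2_minus library, whose lone B2_minus peak also had a median of 9 tags, and 3652 with 3 Cont libraries and no B2_minus library.

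**Figure D1:**
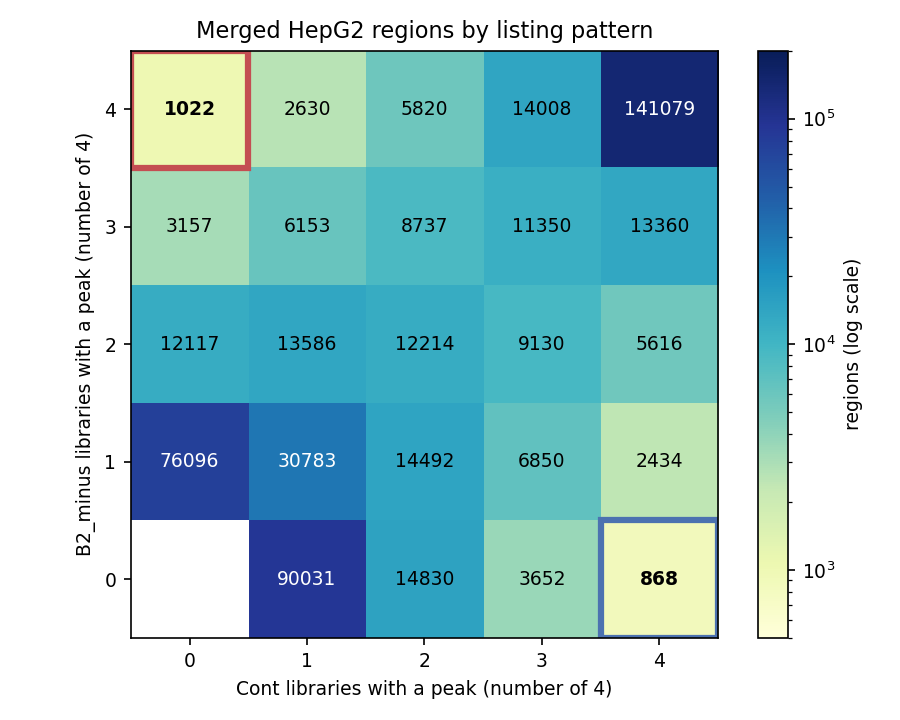
Number of merged regions for each combination of B2_minus libraries (vertical axis, 0 to 4) and Cont libraries (horizontal axis, 0 to 4) that list a peak, with colour on a log scale. The outlined corners are the 1022 B2_minus members at top left and the 868 Cont members at bottom right, beside 141079 regions at top right that all 8 libraries list.

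Most members were weak sites. The lowest of a member's 4 tag counts had a median of 8 in B2_minus members and 7 in Cont members. At least 1 of the 4 libraries stood at the very lowest count of its list in 554 B2_minus members (54.21%) and in 566 Cont members (65.21%). All 4 libraries did so in 11 and 12 members. Of all listed peaks, 12.646% to 15.615% in a B2_minus list and 13.92% to 18.109% in a Cont list had that lowest count. Those are shares of single peaks, and a set of 4 peaks has more occasions to include one, so the member shares are not directly comparable. Mean scaled tags had a median of 9.16 in B2_minus members, with quartiles of 8.2 and 10.6, and of 9.2 in Cont members, with quartiles of 8.43 and 10.4. Regions that all 8 libraries list had, for comparison, a median lowest count of 18 tags. In every other listing pattern that median was 7 or 8 tags, so low counts were not particular to members. It was 7 for 2 B2_minus and 2 Cont libraries, and 7 for all 4 libraries of one group and 1 of the other. Examples of members at the lowest count in all 4 libraries are chr4:88811105-88811443 and chr6:902053-902428 for B2_minus, with 7, 7, 7 and 8 tags each, and chr1:70259580-70260125 and chr3:34002713-34003103 for Cont, with 7, 8, 6 and 7 tags each.

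A small set of members was strong. Every library listed at least 20 tags in 31 B2_minus members and in 19 Cont members, and at least 10 tags in 178 (17.42%) and 54 (6.221%). The share at 10 tags or more depends on library scale, since the lowest listed counts, once scaled, ran between 6.49 and 7.39 in B2_minus and between 7.06 and 7.7 in Cont. The median coefficient of variation of the scaled tags over a member's 4 libraries was 16.65% for B2_minus members and 16.05% for Cont members. The rule and the lowest listed counts cut off low values, which narrows this spread, so it says little about replicate agreement. Median width was 295.5 bp for B2_minus members and 302 bp for Cont members, against 297 bp for regions in all 8 libraries and 200 bp for regions that a single library lists.

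The strongest members lay directly beside peaks of the other condition. All 31 B2_minus members with at least 20 tags in every library had a Cont peak within 200 bp of their edge, the farthest at 192 bp. Among the 19 such Cont members 17 had a B2_minus peak within 200 bp, and the farthest was 257 bp away. Among members whose lowest count was under 8 tags, the share with a neighbour this close was 25.05% for B2_minus and 23.69% for Cont. Closeness to the other group's peaks therefore went together with strength only at the top: the shares at 10 to 14 tags were 23.81% and 27.59%, and at 15 to 19 tags 16 of 21 and 6 of 6 members. Regions in all 8 libraries, whatever their counts, had a further Cont peak within 200 bp in 43.73% of cases and a further B2_minus peak in 42.84%.

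**Figure D2:**
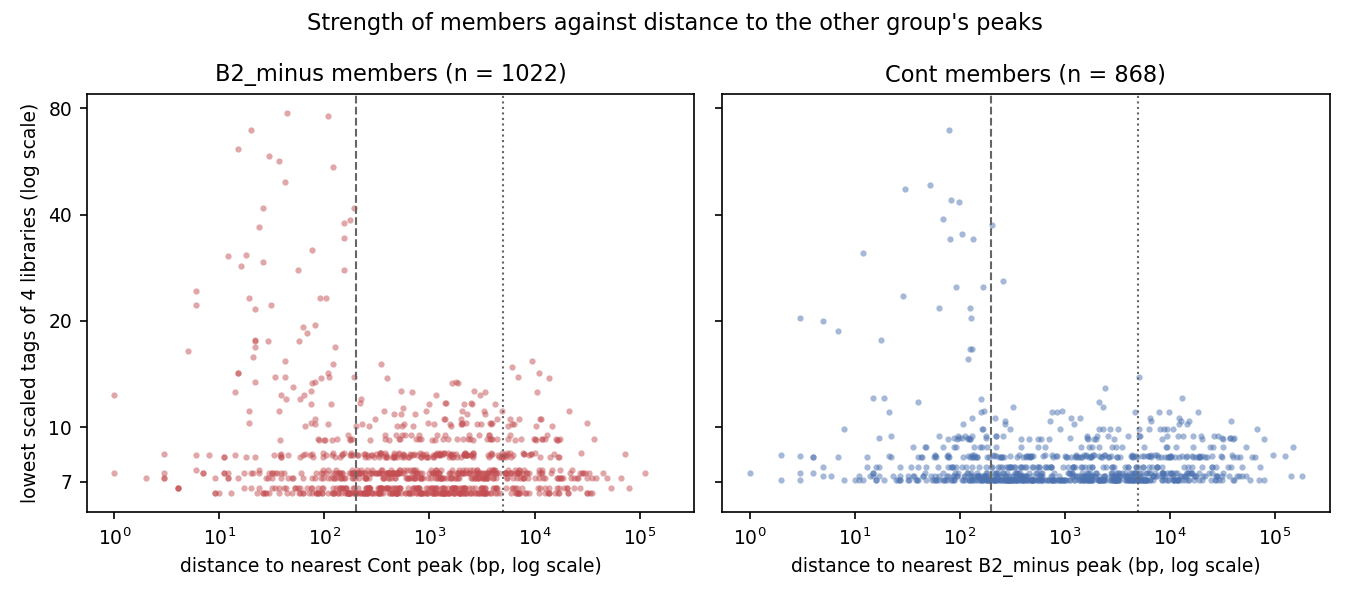
Each point is a member, with the distance to the nearest peak of the other group (bp, log scale) on the horizontal axis and the lowest scaled tags among its 4 libraries (log scale) on the vertical axis; dashed and dotted lines mark 200 and 5000 bp. The 31 B2_minus members (left) with at least 20 tags in every library all lie left of the dashed line, and 17 of 19 such Cont members (right) do.

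The strongest B2_minus member, chr6:47076111-47076330, had 85, 89, 91 and 93 tags in B2_minus libraries 1 to 4. No Cont peak touched it, but 44 bp away the Cont libraries listed a peak with 102, 105, 95 and 103 tags, and 3 of the 4 B2_minus libraries listed that one too, with 89, 89 and 100 tags. All 8 libraries thus had a peak of at least 85 tags in the member or within 200 bp of it. The next member, chr14:24817837-24818067, had 85, 81, 84 and 91 tags in the B2_minus libraries. Beside it stood a peak that all 8 libraries listed, with 104, 94, 109 and 126 tags in B2_minus and 112, 126, 96 and 111 in Cont. The third, chr14:34874353-34874706, had 75, 68, 86 and 83 tags in the B2_minus libraries, and the nearest Cont peak was 20 bp away. Here the peaks alongside reached 122, 127, 136 and 142 tags in B2_minus and 114, 132, 100 and 121 in Cont.

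A member on chromosome 15, chr15:66293696-66293912, had 58, 66, 78 and 75 tags in the B2_minus libraries, and its nearest Cont peak, 15 bp away, belonged to a region that 2 B2_minus libraries and 1 Cont library list. Within 200 bp the strongest peaks held 63, 71, 77 and 94 tags in B2_minus against 59, 79, 51 and 65 in Cont, so the unscaled counts of the groups overlapped there. Chromosome 8 held the members chr8:89757923-89758173, with 61, 58, 66 and 70 tags in B2_minus, and chr8:27362141-27362375, with 60, 63, 65 and 68. Their neighbours in Cont held 93, 93, 74 and 76 tags for the first and 56, 61, 46 and 58 for the other. The remaining 6 of the 12 strongest, at chr6:1263237-1263477, chr2:234863705-234863955, chr2:241217150-241217380, chr19:18385655-18385864, chr19:40778986-40779232 and chr11:64893896-64894120, had a lowest count of 37 to 57 tags. Each had a Cont peak within 200 bp. At chr19:18385655-18385864 only 1 Cont library had a peak that close, with 104 tags at 192 bp, but all 8 libraries list the region it belongs to.

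The strongest Cont member, chr19:10654054-10654335, had 86, 86, 61 and 63 tags in Cont libraries 1 to 4. The B2_minus libraries listed 70, 73, 86 and 87 tags in a peak 79 bp away, which the Cont libraries also listed, with 85, 91, 63 and 65 tags. The second, chr17:50893210-50893555, had 55, 54, 43 and 44 tags in Cont. It lay in a gap between 2 peaks, and the stronger one held 62, 72, 65 and 83 tags in B2_minus and 72, 61, 50 and 66 in Cont. The third, chr20:462168-462401, had 52, 51, 54 and 44 tags in Cont. Its nearest peak, 30 bp away, was listed by 2 B2_minus libraries and by no Cont library, and a peak on the other side held 112, 115, 133 and 149 tags in B2_minus and 110, 103, 87 and 92 in Cont.

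Further Cont members of this kind were chr7:41943366-41943596, with 45, 48, 46 and 40 tags, and chr2:177212097-177212303, with 52, 47, 46 and 45 tags in the Cont libraries. The B2_minus peaks beside them held 67, 75, 64 and 78 tags at the chromosome 7 site and 150, 149, 151 and 159 at the chromosome 2 site. Another 5 of the 12 strongest, at chr2:97664414-97664623, chr4:139176803-139177102, chr5:72320488-72320725, chr1:151327303-151327504 and chr6:42979403-42979812, also had B2_minus peaks within 200 bp. The exceptions were chr4:39458431-39458786, with 36, 44, 40 and 39 tags in Cont and the nearest B2_minus peak at 202 bp, and chr9:114154363-114154802, with 27, 28, 31 and 24 tags and a B2_minus peak of 21 tags at 257 bp.

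**Figure D3:**
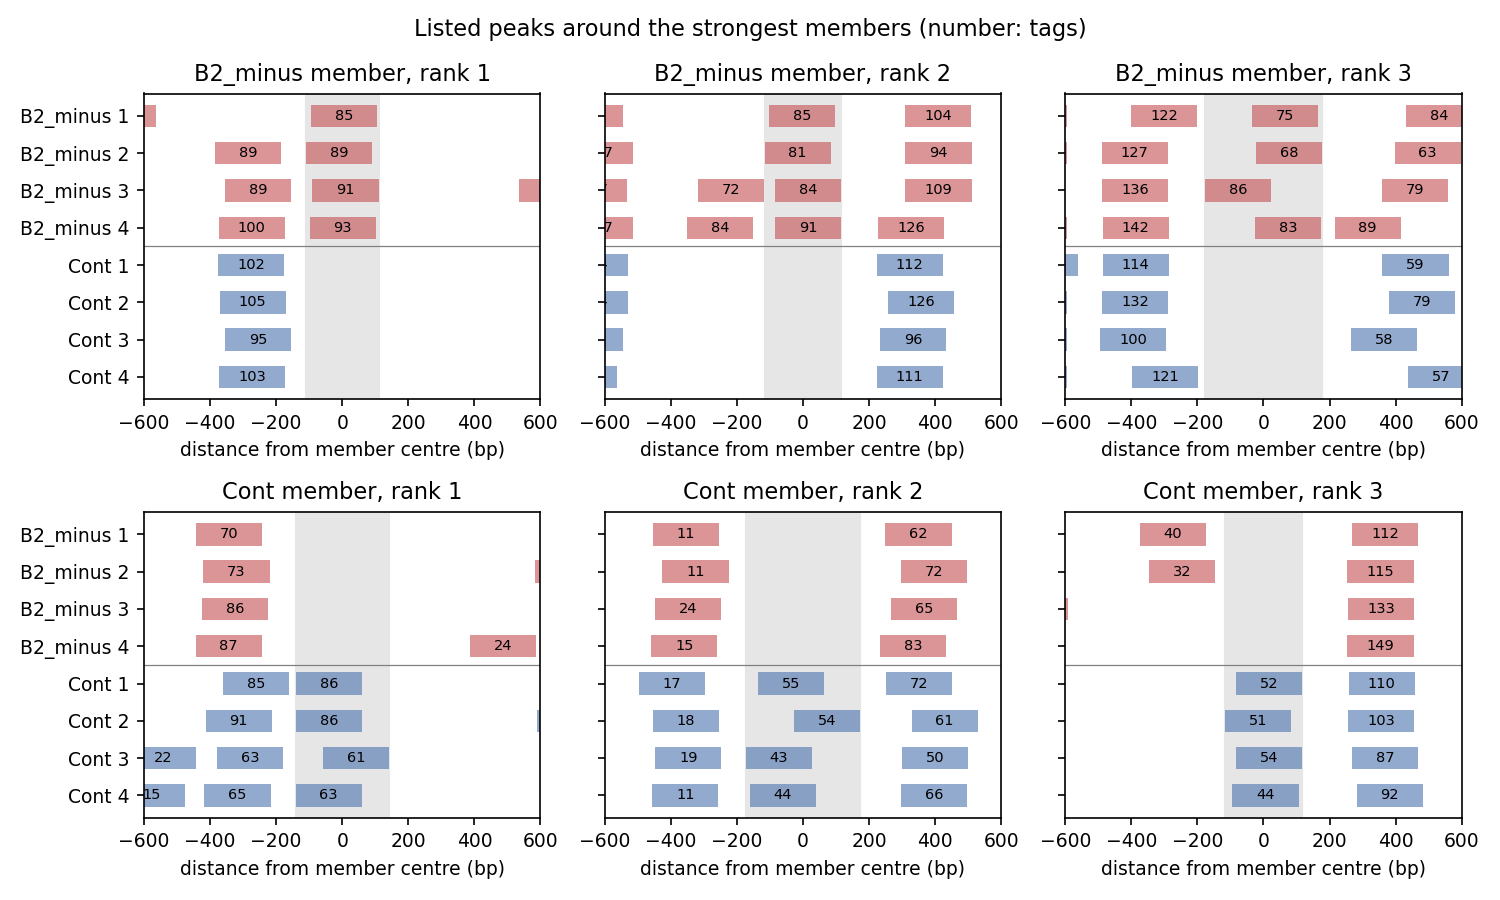
Listed peaks of each library (rows, B2_minus libraries above Cont libraries) within 600 bp of the centre of the 3 strongest B2_minus members (top) and Cont members (bottom), with the tag count written on each peak and the member shaded grey. At the B2_minus member of rank 1 the shaded column holds peaks of 85 to 93 tags in B2_minus only, while Cont peaks of 95 to 105 tags lie just to the left of it.

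Tags over a member and its surroundings together could be compared only where the other group was listed nearby. Peaks of all 4 Cont libraries lay within 200 bp of 87 B2_minus members, including 26 of the 31 strong ones. For these, the strongest peak in the member or within 200 bp of it was taken in each library, and the mean of scaled tags was compared. The median of the 87 log2 ratios of B2_minus over Cont was 0.02, and 80 of the 87 lay within 0.5 of 0 on the log2 scale, as did all 26 strong ones. For Cont members, peaks of all 4 B2_minus libraries lay within 200 bp of 68, including 14 strong ones. Their median log2 ratio of Cont over B2_minus was -0.05, with 63 of 68 and all 14 strong ones within 0.5 of 0. Requiring all 4 libraries of the other group to be listed nearby leaves out the members with low or no listed tags there, so these ratios describe that subset and not members in general. The neighbouring region was one that all 8 libraries list for 104 of the 273 B2_minus members with a Cont peak within 200 bp, and for 87 of the 223 Cont members with a B2_minus peak within 200 bp.

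Over all members, the nearest peak of the other group lay a median of 759.5 bp from B2_minus members and 1028 bp from Cont members. A peak of the other group stood within 200 bp of 26.71% of B2_minus members and 25.69% of Cont members, within 1000 bp of 54.21% and 49.77%, and within 5000 bp of 83.76% and 74.54%. Regions that a single library lists were closer to the other group's peaks, with 62.28% within 1000 bp for B2_minus and 59.11% for Cont. Regions in all 8 libraries had a further Cont peak within 1000 bp in 77.11% of cases. Members of both directions therefore lay farther from the other group's peaks than these regions did. Of the B2_minus members, 0 had a Cont member within 200 bp and 11 had one within 10000 bp.

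The strongest members were not found among those that stood alone, while median levels were close to those of the others. No peak of any Cont library lay within 5000 bp of 166 B2_minus members (16.24%), and no B2_minus peak within 5000 bp of 221 Cont members (25.46%). The lowest count of an isolated member reached at most 16 tags in B2_minus and at most 14 in Cont, against 85 and 61 among members with a neighbour within 200 bp. A count of at least 10 tags in every library was found in 27 of the 166 isolated B2_minus members and in 9 of the 221 isolated Cont members. The median lowest count was 8 tags for B2_minus members and 7 for Cont members, both in isolated members and in those with a neighbour within 200 bp. Mean scaled tags had a median of 9.2 in isolated B2_minus members and 9.39 in those with a neighbour within 200 bp. For Cont members the medians were 9.6 in isolated members and 9.2 in those with such a neighbour. At least 1 library was at the lowest count of its list in 56.02% of isolated B2_minus members and 58.37% of isolated Cont members, against 54.21% and 65.21% of all members.

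The isolated B2_minus member with the highest scaled counts was chr3:114649458-114649670, with 18, 15, 20 and 19 tags in B2_minus libraries 1 to 4 and the nearest Cont peak 9430 bp away. A site at chr13:73031671-73031904 had 16, 16, 16 and 23 tags in B2_minus and a Cont peak of 8 tags at 6128 bp. The site chr5:67131742-67131977 had 14, 17, 16 and 17 tags, with the nearest Cont peak at 10935 bp. A broader site at chr16:57235773-57236122 had 15, 17, 15 and 19 tags, and chr12:93625018-93625386 had 13, 15, 16 and 18. The last of the 6, chr8:91118841-91119125, had 13, 14, 16 and 15 tags, and a Cont peak of 97 tags was the nearest, at 10657 bp. Every count at these 6 sites was at least 13 tags, while a Cont library lists peaks down to 6 to 8 tags. The 6 were picked for their high counts, so this margin reflects the choice, and the Cont level there stays unknown.

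Among isolated Cont members the highest was chr1:86845534-86845846, with 17, 15, 14 and 18 tags in Cont libraries 1 to 4 and a B2_minus peak of 7 tags 5060 bp away. The site chr4:141328595-141328908 had 14, 21, 13 and 11 tags, with the nearest B2_minus peak at 13109 bp. Sites at chr6:118390453-118390880, with 17, 12, 11 and 10 tags, and chr5:174078474-174078780, with 17, 14, 9 and 15, reached 9 or 10 tags in their lowest library. Chromosome 7 held both chr7:26441087-26441332, with 12, 14, 10 and 10 tags, and chr7:27803111-27803368, with 12, 16, 13 and 10. Every count at these 6 sites was at least 9 tags, while B2_minus lists end at 7 or 8 tags. These too were picked for their high counts, and the B2_minus level there stays unknown.

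**Figure D4:**
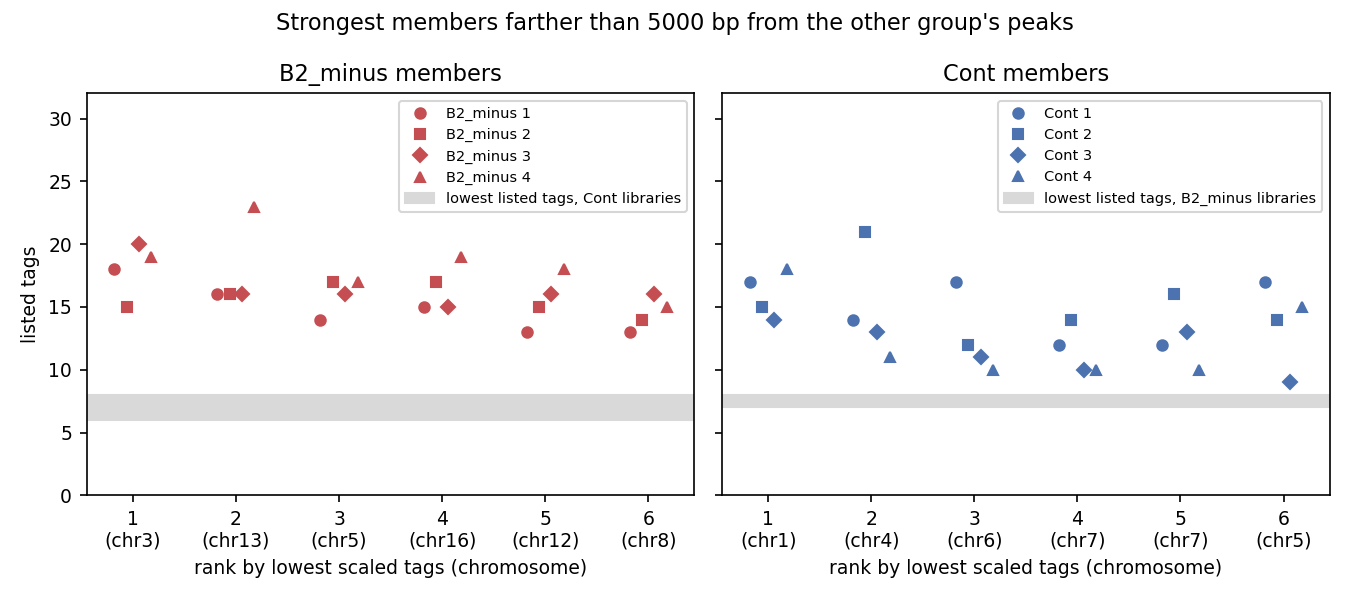
Listed tags in each of the 4 libraries (symbols) for the 6 strongest members farther than 5000 bp from any peak of the other group, B2_minus members at left and Cont members at right. The grey band spans the lowest counts listed in the other group, 6 to 8 tags in Cont and 7 to 8 in B2_minus, and every symbol lies above it, between 13 and 23 tags at left and between 9 and 21 at right. The members shown were picked for their high counts, and the level of the other group at these sites is unknown.

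Members were scattered along the genome. Of the 1 Mb bins that held a B2_minus member, 571 held a single one, 148 held 2, 35 held 3, 11 held 4 and 1 held 6. For Cont members 564 bins held a single one, 113 held 2, 23 held 3, 1 held 4 and 1 held 5. The densest bin was 50 to 51 Mb on chromosome 12, with 6 B2_minus members and no Cont member among 308 regions. Their lowest counts were 7 to 9 tags. The bin at 58 to 59 Mb on chromosome 1 held 5 Cont members and 1 B2_minus member, and the next bin, 59 to 60 Mb, held 4 B2_minus members and no Cont member. The bin at 94 to 95 Mb on chromosome 14 held 4 Cont members. The bin at 8 to 9 Mb on chromosome 2, like that at 59 to 60 Mb on chromosome 1, is one of the 11 tied at 4 B2_minus members, and 3 to 4 Mb on chromosome 1 is one of the 23 tied at 3 Cont members. Another member of the same direction lay within 10000 bp of 31 B2_minus members and 25 Cont members.

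The directions were unevenly spread over chromosomes. B2_minus members made up 54.07% of all members, with the highest share on chromosome 8 (56 of its members against 24 Cont members, 70.0%) and the lowest on chromosome 17 (32 against 47, 40.51%). Chromosome 8 held 5.479% of B2_minus members, 2.765% of Cont members and 3.537% of the regions in 2 B2_minus and 2 Cont libraries. Chromosome 20, with 6.04% of all regions, held 38 B2_minus members and 46 Cont members. Few of either were isolated, 0 of the 38 and 3 of the 46, against 16.24% and 25.46% over all chromosomes.

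Listed tags outside the members were uneven in the same libraries, from which the members were also chosen. The share of a library's listed tags that fell on a chromosome, members left out, did not overlap between the groups on 12 of 23 chromosomes (52.2%). All 4 B2_minus values lay above the Cont values on chromosomes 3, 5, 7, 8, 10, 13, 18, 21 and X, and below them on chromosomes 16, 17 and 20. The exact two-sided permutation test gave each of these 12 chromosomes the smallest p possible, 0.0286, and an adjusted p of 0.0548 over 23 chromosomes, so none passed 0.05. With 12 chromosomes at that smallest p no lower adjusted p was possible, so the failure to pass decides nothing about them. On chromosome 20 the share was 4.762% to 4.912% in B2_minus and 4.938% to 5.056% in Cont. On chromosome 8 it was 3.635% to 3.686% in B2_minus and 3.574% to 3.623% in Cont. The group means differed by -3.389% (chromosome 20) to 2.904% (chromosome 13) of the Cont share. On the 9 chromosomes with a higher tag share in B2_minus, 53.68% (chromosome 7) to 70.0% (chromosome 8) of members were B2_minus members, and on the 3 with a lower one, 40.51% to 48.24%. On the 11 chromosomes whose tag shares overlapped between the groups it was 44.33% (chromosome 11) to 64.71% (chromosome 15), a range that runs into both others. The part of these chromosome-wide differences in the choice of members was not tested.

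**Figure D5:**
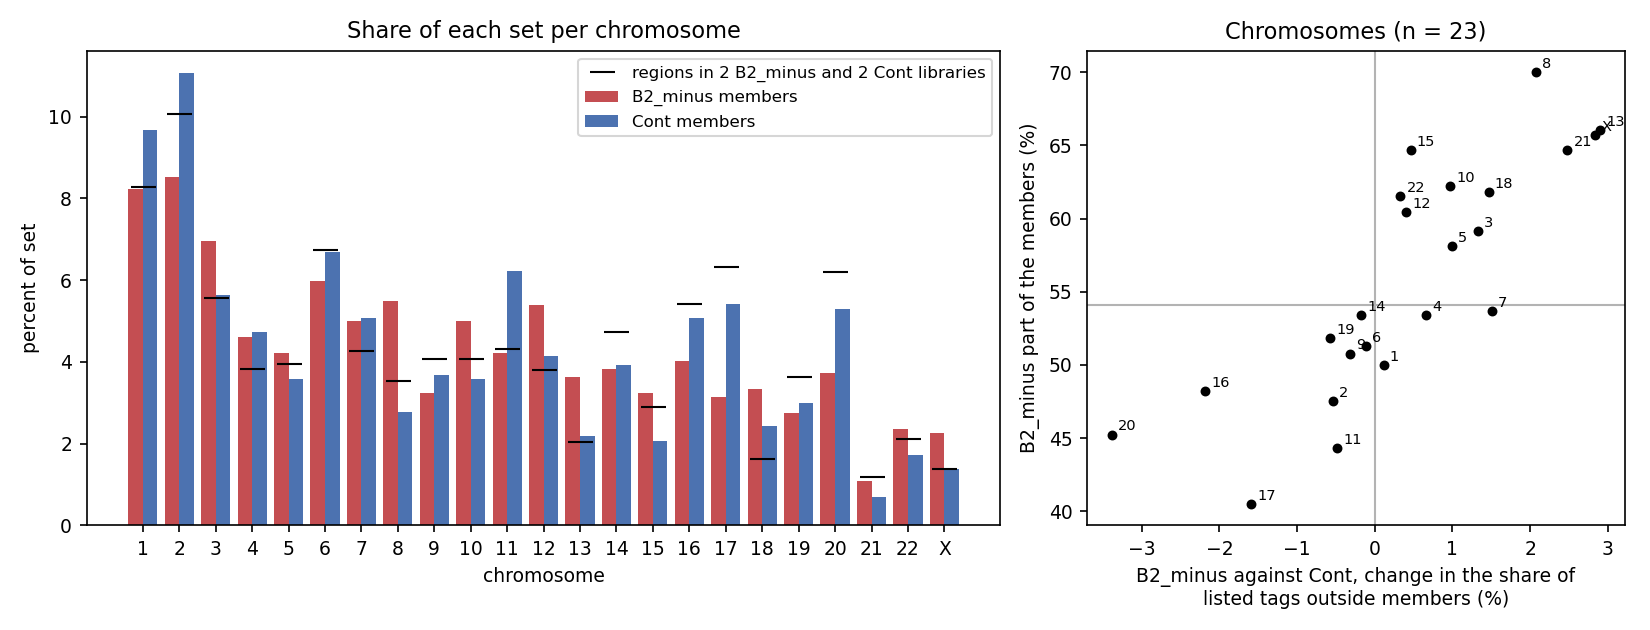
Left: percent of B2_minus members, Cont members and regions in 2 B2_minus and 2 Cont libraries (black ticks) on each chromosome. Right: for each of 23 chromosomes, the B2_minus part of its members (%) against the change in its share of listed tags outside members, B2_minus against Cont (%), with grey lines at 54.07% and 0; chromosome 8 is highest at 70.0% and chromosome 17 lowest at 40.51%, and both axes come from the same 8 libraries.

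Regions that all 8 libraries list could be tested for the same contrast, with edgeR's quasi-likelihood test and Benjamini-Hochberg adjustment at 0.05. Of all 141079 such regions 7761 were higher in B2_minus (5.5%) and 5578 were lower (3.95%). Within 10000 bp of B2_minus members lay 2880 of them, of which 335 were higher and 60 lower in B2_minus, with a median log2 fold change of 0.06. Within 10000 bp of Cont members lay 2018, of which 87 were higher and 117 lower, with a median of -0.03, against -0.01 over all shared regions. These calls rest on the contrast and libraries that chose the members, and nothing is read from them about the members. The counts also depend on the tool and its settings. With edgeR bounded at Poisson variance, 2807 shared regions were higher and 1501 lower. DESeq2 called 1052 shared regions higher and 405 lower, with 48 higher near B2_minus members and 12 lower near Cont members. For DESeq2 the opposite directions near members are not given here, so no lean can be read from its counts there.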

How the data were processed

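Each deposited HepG2 file holds the peaks of 1 library and, for each, a count of tags in whole numbers. The files carry no header, and that the authors left these counts unscaled is an inference from their being whole numbers. Bowtie2, HOMER and hg38 are named per the submitters' processing notes; for settings, read shifting, duplicate handling and the listing threshold the sources used here say nothing. Nearly all listed peaks are 200 bp wide, so a small shift of a peak's centre can move it out of a region. Peaks on chromosome Y or unplaced sequence (0.131%) were left out.

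Overlapping peaks were merged, and the highest peak of a library stood for it in each region. Scaled tags used TMM factors from regions in all 8 libraries. Tests used edgeR 4.0.16, with limma 3.58.1 and DESeq2 1.42.0 as alternatives, and exact permutation over libraries. The edgeR step was also run on simulated counts with less than Poisson spread. That simulation had no lowest listed count and no choice of a highest peak, so it does not check the calls on these data.

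Named regions are, per direction, the 12 members with the highest lowest scaled count, the 6 highest with no peak of the other group within 5000 bp, the 3 bins of 1 Mb with most members and the 2 nearest the lowest listed count; among ties (11 bins with 4 B2_minus members, 23 with 3 Cont members, and 11 B2_minus and 12 Cont members at the lowest count in all 4 libraries) the named ones are picks. Members, lists and rules were chosen with earlier results of these data known. Sequence and gene lists were not analysed here, having no human genome or annotation to read.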

Additional observations from a re-analysis of the deposited data

Results flagged for a closer look

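In 2 of the 40 groups of 4 libraries examined, 1 library stood far from the other 3. For groups not picked by their values, chance alone sets apart about 1 in 20. Most groups here were members picked for a high lowest count, so that rate need not hold for them. The groups were the named members, without those nearest the lowest listed count, and the listed peaks and listed tags of each condition. The Cont member chr4:139176803-139177102 had 34, 40, 41 and 32 tags in Cont libraries 1 to 4, and scaling put library 3 at 48.26, while the lowest library was at 35.21. The Cont member chr6:42979403-42979812 had 30, 34, 27 and 35 tags, and scaling put library 4 at 38.52, while the lowest was at 31.1.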

How the results depend on the processing

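The number of exclusive regions depended on the rule, and so did their identity. Merging at 100 bp overlap gave 1083 B2_minus and 901 Cont members, merging across gaps of up to 200 bp 782 and 707, and lists of equal length 1090 and 776. Of the 1022 and 868 members here, these settings kept 788 and 640, 726 and 612, and 774 and 573 in that order. With at least 10 tags per peak the counts were 1137 and 335, of which 178 and 54 were also members here. Those are all the members with at least 10 tags in every library, the only ones this setting could keep. With at least 10 scaled tags, a setting added after seeing the data, they were 886 and 772, of which 143 and 62 were members here. Allowing 1 library of the other group gave 3652 and 3302, and asking for 3 libraries and none of the other 4179 and 4520. Leaving out one library gave 1583 to 2044 for B2_minus and 1298 to 2151 for Cont, since fewer libraries make the rule easier; all libraries but B2_minus 1 moved both counts by more than 1.5 times.

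Shared regions higher and lower in B2_minus numbered 2807 and 1501 with edgeR bounded at Poisson variance, 4071 and 2679 with summed peaks, and 1052 and 405 with DESeq2; the cause was not tested. Leaving out one library gave 5740 to 6938 higher and 3802 to 5107 lower. Same-numbered libraries did not visibly deviate together (correlations of -0.016 to -0.008), and over all pairs of libraries the range was -0.026 to 0.03. With 4 libraries per group and low counts this cannot exclude a culture or batch shared by number, so whether the numbers pair samples stays unknown. The fit with the replicate block gave 7578 higher and 5463 lower. The difference in listed peaks per library, B2_minus minus Cont, was -5473 and turned to 6596 with at least 10 tags per peak, where exact permutation p = 0.657; leaving out one library did not turn its sign. The planned window for sequence was not run. Sites below the lowest listed counts of 6 to 8 tags could not be measured.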
